A study of Mus musculus with 20 samples.

Results

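The genes described here encode the mTOR kinase complexes, the PI3K and AKT kinases above them, the TSC complex, the Rag and Ragulator proteins that sense amino acids, stress-induced inhibitors, and the translation factors that mTOR controls. They are 36 genes of a list, found by symbol among the 13256 genes of the tables, and all 36 reached the minimum of 0.5 FPKM in at least 5 libraries that was set for testing. FPKM is the number of sequenced fragments per length of transcript and per mapped fragments of a library. Hippocampal RNA was sequenced from mice in 4 groups of 5 libraries: male Fmr1 KO, male WT, female Fmr1 KO and female WT. Both WT groups carry C57 in their titles, and the titles of all 4 groups share the word Con, which the labels do not expand. The mutants are KO in the sample titles and knockdown in another label, and KO is used here. Neither the age of the mice nor the altered stretch of Fmr1 is given in the sources used here. The labels do not say whether the 5 libraries of a group came from separate animals, so every p-value below measures only the spread between these libraries. The question was which of these genes differed between KO and WT in either sex, and whether the sexes differed.

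As background, growth factors and glutamate acting on group 1 metabotropic receptors activate PI3K, which makes a membrane lipid that recruits PDK1 and AKT. AKT inhibits the TSC complex, a brake on the small GTPase Rheb, and Rheb switches on mTOR complex 1 at the lysosome once Rag GTPases, anchored by Ragulator, have brought it there in response to amino acids. Active mTOR complex 1 phosphorylates S6 kinases and the 4E-BP proteins, which then let go of the cap-binding factor eIF4E, so that translation can start. In neurons this route controls protein synthesis at synapses. FMRP, the product of Fmr1, is an RNA-binding protein that represses translation, and its loss in humans causes fragile X syndrome. Raised activity of PI3K and mTOR, read from enzyme assays and protein phosphorylation, has been described in Fmr1 KO mice, and Pik3cb and Agap2 mRNAs are known FMRP targets. RNA levels, the only quantity measured here, do not read phosphorylation.

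Fmr1 was low in every library labelled KO. It averaged 3.56 ± 0.187 FPKM in male KO and 11.4 ± 0.527 FPKM in male WT, and 3.32 ± 0.327 FPKM in female KO and 10.6 ± 0.558 FPKM in female WT (SD, n = 5 each). In each sex the exact two-sided permutation p was 0.00794, the smallest that 5 against 5 can give. All 8 hippocampal neuron markers were present, with sums of 883 to 957 FPKM per library. Sequencing depth is unknown because FPKM carries no counts. Libraries of the female KO group stood apart in 2 measures. Their slope of log2 expression on GC content lay at 0.0659 to 0.0797 per 10% GC, against -0.0991 to 0.0320 in the other 15 libraries. Prl, which encodes the pituitary hormone prolactin, exceeded 4 FPKM in female KO replicates 2, 3 and 4 and reached 42.2 FPKM, against at most 1.68 FPKM elsewhere. Ttr, which marks choroid plexus, exceeded 500 FPKM in 4 libraries, which were male KO replicate 2, female KO replicates 4 and 5, and female WT replicate 4. Since this is bulk tissue, fewer cells of a type and less RNA per cell cannot be told apart in any result below.

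The members spanned a wide range of levels, and FPKM allows genes to be compared per length. Agap2, which encodes a GTPase that activates PI3K in neurons, was highest at a mean of 108 FPKM over the 20 libraries. Rraga, which encodes one of the Rag GTPases, followed at 63.6 FPKM, and Agap2 lay above it in all 20 libraries. Lowest was Eif4ebp1 at 0.619 FPKM. Its paralog Eif4ebp2, the main 4E-BP of brain, was 17.3 times as high by the ratio of means, and 11.4 to 29.9 times as high within single libraries.

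Within the mTOR complexes and Ragulator most levels compared kept a nearly fixed order. Mtor, the kinase, lay at 9.58 FPKM and above the shared subunit Mlst8 at 7.83 FPKM in all 20 libraries. Rictor, the scaffold of complex 2, lay at 4.83 FPKM and above Rptor, the scaffold of complex 1, at 4.17 FPKM, also in all 20. The smallest ratio in a library was 1.02 for Mtor over Mlst8 and 1.01 for Rictor over Rptor, so in some libraries these neighbours were nearly equal. Ragulator, a complex of 5 subunits, was uneven: Lamtor5 averaged 42.6 FPKM, Lamtor2 30.9, Lamtor4 17.0, Lamtor1 13.5 and Lamtor3 8.30 FPKM. That order held in 20 of 20 libraries for each neighbouring pair except Lamtor4 over Lamtor1, which held in 19. Akt1 was 3.82 times Akt2 by the ratio of means, and Rps6kb1 was 1.84 times Rps6kb2. Other pairs changed order between libraries. Mtor lay above Akt1s1 in 18 of 20, Pik3ca above Pik3cb in 11 and Rragc above Rragd in 9.

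**Figure D1:**
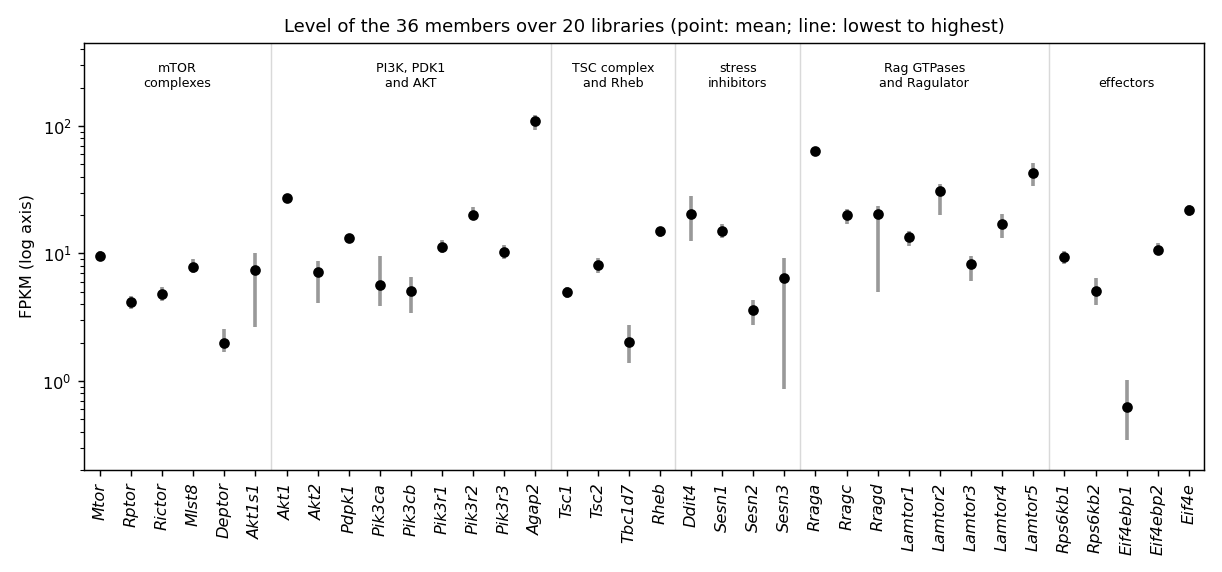
Level of the 36 genes in FPKM on a log axis, ordered by role, with a point for the mean over 20 libraries and a line from the lowest to the highest library. Agap2 is highest and Eif4ebp1 lowest, and the lines of Sesn3, Rragd and Akt1s1 run far below their means.

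Most members varied little between libraries of a group. The coefficient of variation within groups, averaged over the 4 groups, had a median of 6.36% over the members and 8.98% over all 13174 tested genes. Eif4ebp2, Rraga and Rps6kb1 were tightest at 3.39%, 3.82% and 3.87%, while Sesn3 and Pik3ca, described further on, stood at 51.2% and 29.8%.

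Loss of Fmr1 in females went with higher Eif4ebp2, and with no other member past the threshold. A gene passed at a limma adjusted p under 0.05 over all tested genes. In females 1 of 36 members (2.78%) passed, beside 3.32% of all tested genes, so the share was near that of the whole table. The 1 member was higher in KO, a direction that 1.8% of all genes took past the threshold. Unadjusted p-values under 0.05 were found for 5 members (13.9%), beside 19.5% of all genes. For these same 5 genes, Eif4ebp2, Ddit4, Deptor, Lamtor4 and Rragc, the 5 KO libraries all lay above the 5 WT libraries, a pattern seen upward in 3.17% of all genes. No member lay wholly below WT, beside 2.82% of all genes. The last 3 of these genes are named because of their values.

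In males 0 of 36 members passed, beside 0.0455% of all genes. Unadjusted p-values were under 0.05 for Pik3r3 and Rragc (5.56% of the members), beside 8.69% of all genes, and both were lower in KO. KO and WT libraries of males overlapped for every member, while 2% of all genes separated. The median log2 difference, KO minus WT, over the members was 0.02 in males and 0.04 in females, beside -0.00 and 0.01 over all genes. It was above 0 for 21 members in males (58.3%, against 49.2% of all genes) and for 26 in females (72.2%, against 52% of all genes). With the GC trend removed the number in females was 22 (61.1%, against 49.2% of all genes), and the members that turned sign had differences of at most 0.04 in size before it.

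Most intervals were narrow. The 95% interval of the KO minus WT difference lay within 0.32 log2 units of 0 on both sides for 29 members in males and 27 in females. The widest were those of Sesn3, with a standard error of 0.59.

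**Figure D2:**
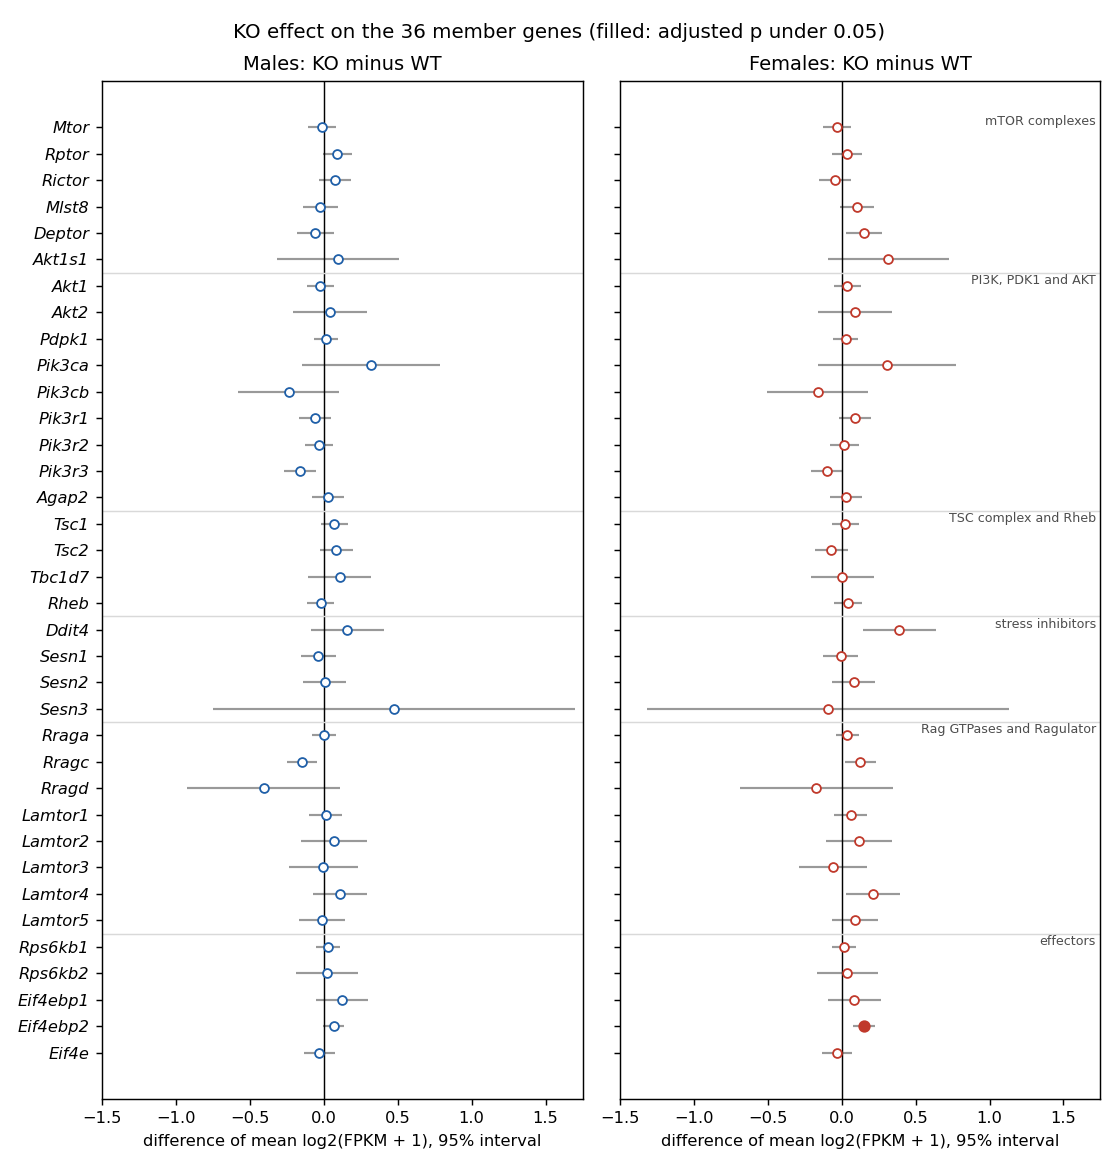
Difference of mean log2(FPKM + 1), KO minus WT, for the 36 genes in males (left) and females (right), with 95% intervals from limma over 5 libraries a group. The filled point, Eif4ebp2 in females, is the only one with an adjusted p under 0.05, and the widest interval belongs to Sesn3.

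Among the translation effectors, Eif4ebp2 rose in female KO. It encodes a repressor that holds eIF4E until mTOR complex 1 phosphorylates it, and in mice its deletion alters synaptic balance and social behaviour. The gene (ENSMUSG00000020091.15) lies on the minus strand of chromosome 10, 61428491 to 61452661 in mm10. Female KO libraries 1 to 5 had 12.0, 11.8, 11.7, 12.1 and 11.1 FPKM, against 10.3, 10.8, 10.97, 10.2 and 10.1 FPKM in female WT. The lowest female KO library stood just above the highest female WT library, so the groups did not overlap. Group means were 11.7 ± 0.388 FPKM in female KO and 10.5 ± 0.366 FPKM in female WT (SD, n = 5 each). The log2 difference, KO minus WT, was 0.15 (SE 0.03, limma adjusted p = 0.0240).

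In male KO the 5 libraries had 10.7, 11.2, 10.6, 10.2 and 10.2 FPKM of Eif4ebp2, against 9.83, 9.88, 10.5, 10.2 and 9.91 FPKM in male WT. These groups overlapped, since 2 male KO libraries lay below the highest male WT library. The log2 difference was 0.07 (SE 0.03, adjusted p = 0.608). The difference between the KO effects, males minus females, was -0.08 (adjusted p = 0.594), so the sexes were not shown to differ. For the mean of both KO effects Eif4ebp2 rose by 0.11 (SE 0.02, adjusted p = 0.0193), the only member to pass there, beside 3.22% of all genes in either direction and 1.38% upward. An unadjusted p under 0.05 for that mean was found for 4 members (11.1%), which were Eif4ebp2, Ddit4, Lamtor4 and Pik3r3, beside 18% of all genes.

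The female call was sensitive to the libraries and settings used. It ended in a fit of the 2 female groups alone (adjusted p = 0.0652), without female KO replicate 2 or 3 or female WT replicate 4 or 5 (0.0503 to 0.0613), without the 4 libraries high in Ttr (0.0871) and without the 3 high in Prl (0.312), which leaves 2 female KO libraries. The GC content of the gene is 54.5%, against a median of 51.0% over all tested genes, and with the GC trend removed the difference was 0.12 (adjusted p = 0.0785). Beside this result, the 3 pituitary markers with values here, Prl, Gh and Pomc, summed to 0.508 to 129 FPKM in female KO libraries and 0.128 to 4.52 FPKM in female WT libraries. Choroid plexus markers, all 10 of them measured, summed to 65.8 to 1681 FPKM in female KO and 36.9 to 1036 FPKM in female WT. Cga and Pou1f1 of the pituitary list had no values here. None of the markers with values was at 0 in every library. The part of these tissues in the result was not tested beyond leaving libraries out.

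The bases just upstream of the annotated starts of Eif4ebp2 and of Ddit4, the member with the next smallest p in females, are shown because these genes had the smallest p-values both for KO against WT in females and for males against females within KO. They are from RefSeq on GRCm38.p6, read 5′ to 3′ on the minus strand, at chr10:61452670-61452919 (250 bases) and chr10:59951835-59952020 (186 bases, shortened where the deposited gene model begins). Capitals mark ACGTG, a form of the core of the hypoxia response element, and other forms of that core were not searched. In Eif4ebp2 ACGTG lies on the opposite strand and so reads CACGT.
Eif4ebp2: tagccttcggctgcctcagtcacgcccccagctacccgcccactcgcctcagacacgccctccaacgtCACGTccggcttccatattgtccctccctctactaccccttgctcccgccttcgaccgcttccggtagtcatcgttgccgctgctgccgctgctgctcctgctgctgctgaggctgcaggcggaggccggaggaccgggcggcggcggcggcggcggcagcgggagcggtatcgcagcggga
Ddit4: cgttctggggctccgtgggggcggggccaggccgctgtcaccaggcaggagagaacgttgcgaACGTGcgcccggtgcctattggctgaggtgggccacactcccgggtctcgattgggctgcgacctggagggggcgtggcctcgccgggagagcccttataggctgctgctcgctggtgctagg
Each window held ACGTG once, counting both strands. Of 32851 promoters in the same table, 16.6% held it within the 250 bases before the start. In 11.8% it lay within the 186 of these bases farthest from the start, the same stretch as for Ddit4. Neither window held the E-box CACGTG (6.02% of promoters within 250 bases and 3.90% within 186), the ATF4-type amino acid response motif TGATGNAA (3.45% and 2.47%) or the cAMP response motif TGACGTCA (1.55% and 0.658%). Both strands were searched, and ACGTG is contained in CACGTG. Of the members, 32 of 36 matched the table, with 42 promoters, of which 26.2% held ACGTG within 250 bases. The E-box CACGTG, which is counted again as ACGTG, was held by 14.3% of these 42, beside 6.02% of all promoters. TGATGNAA was held by 4.76% and TGACGTCA by 0%. A match is a description of these letters and not a site of binding.

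The remaining effectors did not pass. Eif4ebp1, the paralog of Eif4ebp2 with a low level in brain, had 0.938, 0.531, 0.698, 0.542 and 0.385 FPKM in male KO libraries and 0.536, 0.446, 0.352, 0.739 and 0.346 FPKM in male WT libraries. Female KO libraries had 0.693, 1.02, 0.618, 0.656 and 0.705 FPKM, against 0.565, 0.712, 0.699, 0.619 and 0.576 FPKM in female WT. The groups overlapped in both sexes, with female KO replicate 2 above all others. The log2(FPKM + 1) scale understates changes at such low levels. On it the difference was 0.12 in males (SE 0.09, adjusted p = 0.742) and 0.09 in females (SE 0.09, adjusted p = 0.619). Eif4e, the cap-binding factor itself, differed by -0.03 in either sex. Rps6kb1 and Rps6kb2, the S6 kinases, differed by 0.03 and 0.02 in males and by 0.01 and 0.04 in females, with adjusted p-values of 0.872 to 0.976.

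Ddit4 had the smallest p after Eif4ebp2 in females, without passing. Its product, also known as REDD1, is induced by hypoxia, glucocorticoids and energy stress and restrains mTOR complex 1 through the TSC complex. The gene lies on the minus strand of chromosome 10, 59949669 to 59951834 in mm10. Female KO libraries had 25.2, 28.3, 27.7, 21.9 and 25.8 FPKM, against 18.8, 21.5, 20.8, 18.7 and 17.4 FPKM in female WT. All 5 female KO libraries lay above all 5 female WT libraries. Their means were 25.8 ± 2.50 FPKM in female KO and 19.4 ± 1.67 FPKM in female WT (SD, n = 5 each), a log2 difference of 0.39 (SE 0.12, adjusted p = 0.0712). In a fit of the 2 female groups alone the adjusted p was 0.0458. In the other 18 alternatives run it did not pass, with adjusted p-values up to 0.375.

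Male KO libraries had 16.2, 20.7, 22.5, 16.3 and 18.3 FPKM of Ddit4, against 16.4, 14.4, 12.6, 19.8 and 21.3 FPKM in male WT. These groups overlapped over most of their range. The log2 difference was 0.16 in males (SE 0.12, adjusted p = 0.760), and the mean of both KO effects was 0.27 (adjusted p = 0.0773). The GC content of Ddit4 is 57.9%.

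The sestrins, which are induced by stress and, in the case of Sesn2, sense leucine, held no gene past the threshold or with an unadjusted p under 0.05 for KO against WT. Sesn1 lay at 15.1 ± 1.37 FPKM in male KO and 15.5 ± 1.01 in male WT, and at 14.9 ± 1.02 in female KO and 14.9 ± 0.478 in female WT. Sesn2 differed by 0.01 on the log2 scale in males and 0.08 in females (adjusted p = 0.994 and 0.559). Sesn3 split into separate levels and is taken up below.

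**Figure D3:**
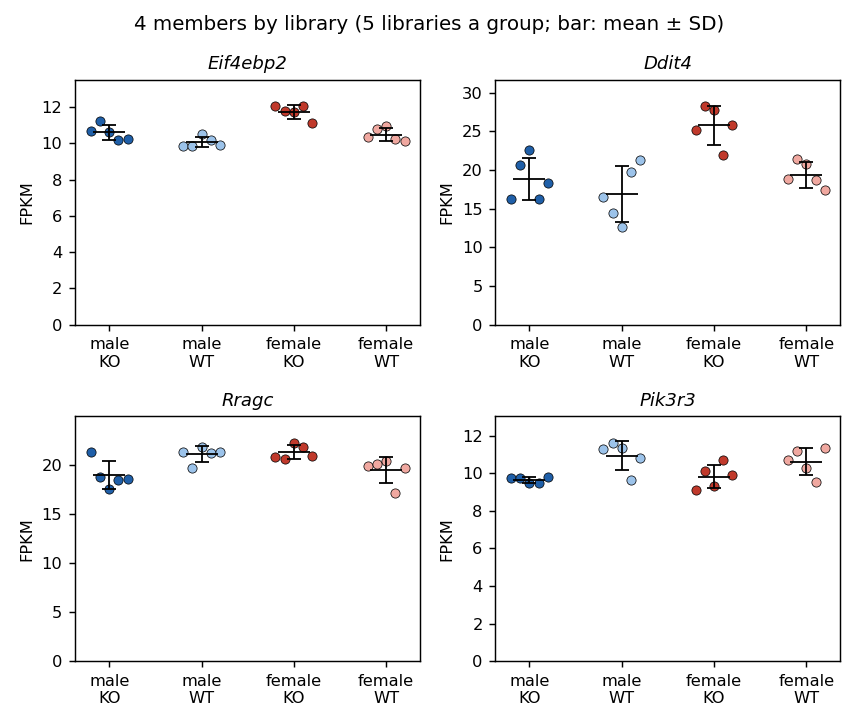
FPKM of Eif4ebp2, Ddit4, Rragc and Pik3r3 in each of the 20 libraries, by group, with bars at mean ± SD (n = 5). In Eif4ebp2, Ddit4 and Rragc all female KO points lie above all female WT points, and for Rragc male KO averages below male WT.

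Rragc had KO effects of opposite sign in the sexes, without passing in any KO comparison. It encodes RagC, which pairs with RagA or RagB on the lysosome to recruit mTOR complex 1. Male KO libraries had 21.3, 18.8, 17.5, 18.5 and 18.6 FPKM, against 21.3, 19.7, 21.8, 21.2 and 21.3 FPKM in male WT. Female KO libraries had 20.8, 20.6, 22.2, 21.8 and 20.9 FPKM, against 19.9, 20.1, 20.4, 17.1 and 19.7 FPKM in female WT. Male groups overlapped through male KO replicate 1, while female groups did not overlap. Female WT replicate 4, at 17.1 FPKM, stood apart from the others of its group (19.7 to 20.4 FPKM). The log2 difference was -0.15 in males (SE 0.05, adjusted p = 0.377) and 0.13 in females (SE 0.05, adjusted p = 0.165). With single libraries left out it ran from -0.19 to -0.12 in males and from 0.08 to 0.14 in females. The difference of the KO effects, males minus females, was -0.27 (SE 0.07, unadjusted p = 0.00093, adjusted p = 0.254), the smallest p of any member in that comparison. A protein-coding gene lies on the opposite strand over Rragc and a processed pseudogene on the same strand, and the strand setting is not given in the sources used here, so shared reads cannot be told apart.

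In the Rag and Ragulator group as a whole, 0 of 8 members passed in either sex, and unadjusted p-values under 0.05 were those of Rragc in both sexes and of Lamtor4 in females. Lamtor4, which encodes a Ragulator subunit, ranged from 17.7 to 20.3 FPKM in female KO and from 13.3 to 17.7 FPKM in female WT (log2 difference 0.21, SE 0.09, adjusted p = 0.186). In males it ranged from 14.1 to 19.1 FPKM in KO and from 13.2 to 17.8 FPKM in WT (0.11, adjusted p = 0.786). The 5 Lamtor genes had a median log2 difference of 0.01 in males and 0.09 in females. Rraga, the partner of Rragc, averaged 63.4 ± 2.17 FPKM in male KO and 63.4 ± 3.34 in male WT, and 64.7 ± 1.62 in female KO and 63.0 ± 2.58 in female WT (SD, n = 5 each). Its 95% interval ran from -0.08 to 0.08 in males and from -0.04 to 0.12 in females on the log2 scale.

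No gene of the mTOR complexes passed in either sex, and Deptor in females was the only one with an unadjusted p under 0.05. Mtor had 9.87, 9.05, 9.65, 10.4 and 9.16 FPKM in male KO libraries, against 9.71, 10.3, 9.57, 8.91 and 10.04 FPKM in male WT. In female KO libraries it had 10.5, 9.03, 9.33, 8.88 and 9.23 FPKM, against 9.83, 9.70, 9.72, 9.47 and 9.25 FPKM in female WT. KO and WT overlapped in both sexes, and in females replicate 1 of KO lay above all WT libraries while 3 others lay below them. The log2 difference was -0.01 in males (95% interval -0.11 to 0.08, adjusted p = 0.977) and -0.03 in females (-0.13 to 0.07, adjusted p = 0.771). Its sign turned in females without the 3 libraries high in Prl (0.03).

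Deptor, which encodes an inhibitory subunit of both complexes, ranged from 1.90 to 2.55 FPKM in female KO and from 1.70 to 1.87 FPKM in female WT, with a log2 difference of 0.15 (SE 0.06, adjusted p = 0.155). In males the difference was -0.06 (adjusted p = 0.853), and the difference of the effects, males minus females, was -0.21 (unadjusted p = 0.0205, adjusted p = 0.428). Deptor and Rragc were the 2 members with an unadjusted p under 0.05 there (5.56% of the members), beside 10% of all genes, and 0 passed, beside 0.0455% of all genes. Rptor differed by 0.09 in males and 0.04 in females, Rictor by 0.08 and -0.05, and Mlst8 by -0.02 and 0.10, none past the threshold.

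The PI3K and AKT genes also held no member past the threshold in either sex, and Pik3r3 in males was the only one with an unadjusted p under 0.05. Pik3r3, which encodes the p55 gamma regulatory subunit found in brain, had the smallest p in males. Male KO libraries had 9.76, 9.77, 9.51, 9.46 and 9.80 FPKM, against 11.3, 11.6, 11.4, 9.63 and 10.8 FPKM in male WT. Only male WT replicate 4 reached into the narrow range of the male KO group. Female KO libraries had 9.12, 10.1, 9.29, 10.7 and 9.90 FPKM, against 10.7, 11.2, 10.3, 9.55 and 11.3 FPKM in female WT, with a wide overlap.

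For Pik3r3 the log2 difference was -0.16 in males (SE 0.05, adjusted p = 0.331) and -0.10 in females (SE 0.05, adjusted p = 0.286). The mean of both was -0.13 (SE 0.04, adjusted p = 0.0539), just outside the threshold. It passed with a filter of 2 FPKM (0.0475), without the 4 libraries high in Ttr (0.0376), and without female KO replicate 4, female WT replicate 4 or male WT replicate 4 (0.0183 to 0.0387). In the other 23 alternatives run it did not pass, with adjusted p-values up to 0.126. Another protein-coding gene model, Gm49337, overlaps Pik3r3 on the same strand, and how reads were split between them is not known here.

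Pik3cb, which encodes the p110 beta catalytic subunit and whose mRNA FMRP is known to bind, had 3.95, 3.99, 6.41, 6.05 and 3.87 FPKM in male KO libraries, against 4.17, 6.29, 6.55, 5.95 and 6.21 FPKM in male WT. Female KO libraries had 6.22, 4.07, 3.64, 5.29 and 3.42 FPKM, against 5.82, 6.02, 4.27, 6.02 and 3.67 FPKM in female WT. In all 4 groups some libraries lay near 4 FPKM and others near 6 FPKM. The log2 difference was -0.24 in males (95% interval -0.58 to 0.11, adjusted p = 0.742) and -0.16 in females (-0.50 to 0.18, adjusted p = 0.622), and both intervals included 0.

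Agap2, the other FMRP target of the list, had 108, 103, 102, 109 and 107 FPKM in male KO libraries, against 93.7, 96.4, 113, 106 and 110 FPKM in male WT. Female KO libraries had 118, 113, 117, 106 and 112 FPKM, against 115, 111, 122, 105 and 103 FPKM in female WT. Both pairs of groups overlapped over most of their range. The log2 difference was 0.03 in either sex (95% interval -0.08 to 0.14 in each, adjusted p = 0.923 in males and 0.796 in females), and in females it turned to -0.07 with the GC trend removed. Akt1, the more abundant of the 2 AKT members, differed by -0.02 in males and 0.04 in females, and Pdpk1, which encodes PDK1, by 0.02 and 0.03.

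No gene of the TSC complex, nor Rheb, passed in either sex or had an unadjusted p under 0.05. Tsc1 and Tsc2, the scaffold and the GTPase-activating subunit of the brake on Rheb, differed by 0.07 and 0.09 in males and by 0.03 and -0.07 in females. Tbc1d7, the third subunit, differed by 0.11 in males and 0.00 in females, and Rheb by -0.02 and 0.04. The smallest adjusted p of these 4 genes was 0.493, for Tsc2 in females.

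Between the sexes, Eif4ebp2 and Ddit4 were lower in male KO than in female KO. These were 2 of 36 members (5.56%), beside 5.38% of all tested genes and 3.13% of all genes downward, so the share was again near that of the whole table. The comparison uses the same 5 female KO libraries as KO against WT in females. Eif4ebp2 averaged 10.6 ± 0.423 FPKM in male KO and 11.7 ± 0.388 FPKM in female KO, a log2 difference, male minus female, of -0.14 (SE 0.03, adjusted p = 0.0296). Ddit4 averaged 18.8 ± 2.75 FPKM in male KO and 25.8 ± 2.50 FPKM in female KO, a difference of -0.44 (SE 0.12, adjusted p = 0.0372). In each gene the highest male KO library reached just into the female KO range.

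Both calls depended on single libraries. That of Eif4ebp2 ended without female KO replicate 2, 3 or 4 or male KO replicate 1, 4 or 5 (adjusted p = 0.0545 to 0.0710) and with the GC trend removed (difference -0.08, adjusted p = 0.222). That of Ddit4 ended without any of 4 female KO replicates (all but 4) or 4 male KO replicates (all but 3), at 0.0503 to 0.0997, and with the GC trend removed (0.138). Leaving out the libraries high in Ttr or in Prl ended both, at 0.0604 and 0.304 for Eif4ebp2 and at 0.0929 and 0.262 for Ddit4.

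Unadjusted p-values under 0.05 between male KO and female KO were found for 9 members (25%), beside 23.3% of all genes. Rps6kb1, which encodes the S6 kinase most studied in neurons, was the only member of the 36 in which the groups did not overlap, beside 8.02% of all genes and 3.5% of all genes upward. It had 10.4, 10.5, 9.38, 9.82 and 9.48 FPKM in male KO, against 8.62, 9.16, 9.18, 8.73 and 9.11 FPKM in female KO. Every male KO library lay above every female KO library, a log2 difference of 0.13 (SE 0.04, adjusted p = 0.0511). It passed with upper-quartile rescaling (0.0385), a filter of 2 FPKM (0.0417) and without male KO replicate 3 or 5 (0.0455 and 0.0479). With the GC trend removed the difference was 0.08 (adjusted p = 0.220), and without the libraries high in Ttr or Prl the adjusted p was 0.242 and 0.264. Between male WT and female WT the difference was 0.12 (adjusted p = 0.308). Between male KO and female KO, Lamtor1, Lamtor4 and Lamtor5 differed by -0.13, -0.22 and -0.17, all lower in male KO without passing (adjusted p = 0.131 to 0.167). Lamtor2 differed by -0.05 and Lamtor3, in the other direction, by 0.12 (adjusted p = 0.801 and 0.555). With the GC trend removed the median of the 5 Lamtor genes was -0.07, with 2 above 0. Rragc differed by -0.16 (adjusted p = 0.0598) and passed without male KO replicate 1 (0.0351).

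Between male WT and female WT 0 of 36 members passed, beside 0.129% of all genes, and 5 had an unadjusted p under 0.05 (13.9%, beside 10.3% of all genes). Deptor lay wholly higher in males, at 1.88 to 2.12 FPKM in male WT and 1.70 to 1.87 FPKM in female WT (log2 difference 0.13, adjusted p = 0.462), beside 1.39% of all genes wholly higher. Akt2 lay wholly lower, at 4.47 to 7.12 FPKM in male WT and 7.17 to 7.98 FPKM in female WT (-0.26, adjusted p = 0.465), beside 0.789% of all genes wholly lower. Both are named for this separation.

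Several members took separate levels in libraries of several groups. They are described because of their values. In 4 members (11.1%), Pik3ca, Sesn3, Rragd and Akt1s1, the largest gap between neighbouring libraries covered over 50% of the log2 range of the 20 libraries, beside 3.73% of all genes. Pik3ca, which encodes the p110 alpha catalytic subunit, lay at 3.84 to 5.07 FPKM in 14 libraries and at 8.06 to 9.47 FPKM in 6. The 6 were male KO replicates 4 and 5, female KO replicates 2, 3 and 4, and female WT replicate 4. Its KO minus WT differences of 0.32 in males and 0.30 in females (SE 0.22 each, adjusted p = 0.745 and 0.472) rest on how many libraries of a group lay at the upper level.

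Sesn3 lay at 6.90 to 9.14 FPKM in 15 libraries and at 0.866 to 1.2 FPKM in 5, which were male WT replicate 5, female KO replicates 3 and 4, and female WT replicates 3 and 5. Rragd, the paralog of Rragc, stood at 4.96 FPKM in male KO replicate 3 and at 18.3 to 23.7 FPKM in the other 19. Akt1s1, which encodes the mTOR inhibitor PRAS40, stood at 2.65 FPKM in female WT replicate 2 and at 5.78 to 10.001 FPKM elsewhere. Akt2 had 2 low libraries, male KO replicate 2 at 4.06 FPKM and male WT replicate 5 at 4.47 FPKM, against 6.41 to 8.75 FPKM in the other 18. Pik3cb divided 9 libraries at 3.42 to 4.27 FPKM from 11 at 5.29 to 6.55 FPKM. Some libraries were low in more than 1 of these genes, such as male WT replicate 5 in Sesn3 and Akt2, and whether the levels reflect the assignment of fragments to transcript models was not tested.

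**Figure D4:**
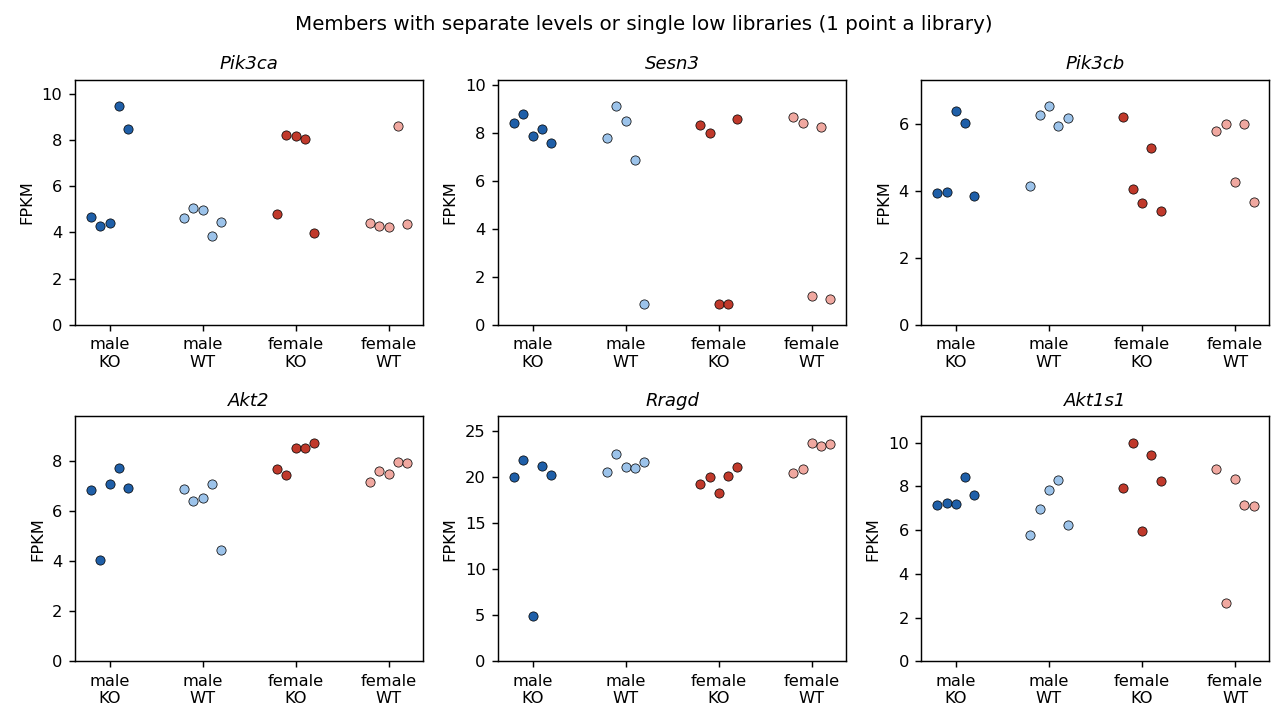
FPKM of Pik3ca, Sesn3, Pik3cb, Akt2, Rragd and Akt1s1, with 1 point for each of 20 libraries by group. Pik3ca, Sesn3 and Pik3cb each fall into a lower and an upper band within several groups, and Akt2, Rragd and Akt1s1 have 1 or 2 low libraries.

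Further genes of the pathway were taken from 6 lists with 68 names, of which 64 were tested. In females 2 were higher and 1 lower in KO, and in males 0 passed. The share passing in females was 4.69%, near the 3.32% of all genes (1.8% higher and 1.53% lower). Unadjusted p-values under 0.05 were found for 13 genes in females (20.3%, beside 19.5% of all genes) and 4 in males (6.25%, beside 8.69%). Prr5, which encodes a subunit of mTOR complex 2, averaged 3.26 ± 0.573 FPKM in female KO and 2.29 ± 0.399 FPKM in female WT, with overlapping ranges (log2 difference 0.37, SE 0.10, adjusted p = 0.0407). Prkag1, which encodes a regulatory subunit of the energy sensor AMPK, averaged 22.5 ± 0.960 FPKM in female KO and 19.8 ± 1.35 FPKM in female WT (0.18, SE 0.05, adjusted p = 0.0364). Lars, the leucyl-tRNA synthetase, fell to 11.1 ± 0.515 FPKM in female KO, against 13.7 ± 1.28 FPKM in female WT (-0.28, SE 0.05, adjusted p = 0.0132). In Lars female WT replicate 1, at 11.8 FPKM, lay within the female KO range.

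These calls were not equally firm. Lars lost its call in 3 of the alternatives (the fit of the female groups alone and both fits without libraries high in Ttr or Prl), Prr5 in 10 and Prkag1 in 12, single libraries among them. In males the smallest p of the 64 was that of Pdcd4, which encodes an inhibitor of translation initiation that S6 kinase marks for degradation. It averaged 44.4 ± 1.26 FPKM in male KO and 49.9 ± 2.09 FPKM in male WT (-0.16, SE 0.03, adjusted p = 0.0845), without overlap. In females it averaged 45.3 ± 1.68 FPKM in KO and 48.02 ± 1.004 FPKM in WT (-0.08, SE 0.03, adjusted p = 0.169). For the mean of both KO effects Pdcd4 fell by 0.12 on the log2 scale (SE 0.02, adjusted p = 0.00793) and was the only 1 of the 64 to pass (1.56%, beside 3.22% of all genes and 1.84% downward). That call ended only without the 3 libraries high in Prl (0.108).

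By list, the GATOR and KICSTOR genes, which link amino acid supply to the Rag GTPases, held 0 calls among 11 (unadjusted p under 0.05 for 0 in males and 1 in females), with median log2 differences of 0.03 in males and 0.01 in females and the smallest p in females for Mios (adjusted p = 0.0917). Folliculin, amino acid sensors and carriers held Lars among 9 tested, with medians of -0.02 in males and 0.02 in females. PI3K and lipid phosphatase genes held 0 calls among 11 (unadjusted p under 0.05 for 1 in males and 0 in females), with medians of -0.06 in males and -0.06 in females. Receptors and adaptors held 0 calls among 8 (unadjusted p under 0.05 for 1 in males and 2 in females). Their smallest p in males was for Ntrk2, the BDNF receptor (0.11, adjusted p = 0.508). In females it was for Igf1r, the IGF1 receptor (0.11, adjusted p = 0.0874). The mTOR complex 2 and AGC kinase list held Prr5 among 6, and effectors and energy sensing held Prkag1 among 19. The median over all 64 was 0.00 in males and -0.01 in females.

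Between male KO and female KO, 3 of the 64 were higher and 0 lower, Lars and Fnip1 among those higher (4.69%, beside 5.38% of all genes and 2.25% upward). Lars averaged 13.6 ± 0.657 FPKM in male KO and 11.1 ± 0.515 FPKM in female KO (log2 difference, male minus female, 0.27, SE 0.05, adjusted p = 0.0130). Fnip1, a partner of folliculin, averaged 12.7 ± 0.497 FPKM in male KO and 11.4 ± 0.463 FPKM in female KO (0.15, SE 0.04, adjusted p = 0.0326), and lost its call in 11 of the alternatives. For Lars the call ended without the libraries high in Ttr (0.0978) or Prl (0.207). Between male WT and female WT 0 of the 64 passed and 7 had an unadjusted p under 0.05 (10.9%, beside 10.3% of all genes). For the difference of the KO effects 0 passed and 8 had an unadjusted p under 0.05 (12.5%, beside 10% of all genes), and there Lars had the smallest p (males minus females 0.31, adjusted p = 0.237).

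**Figure D5:**
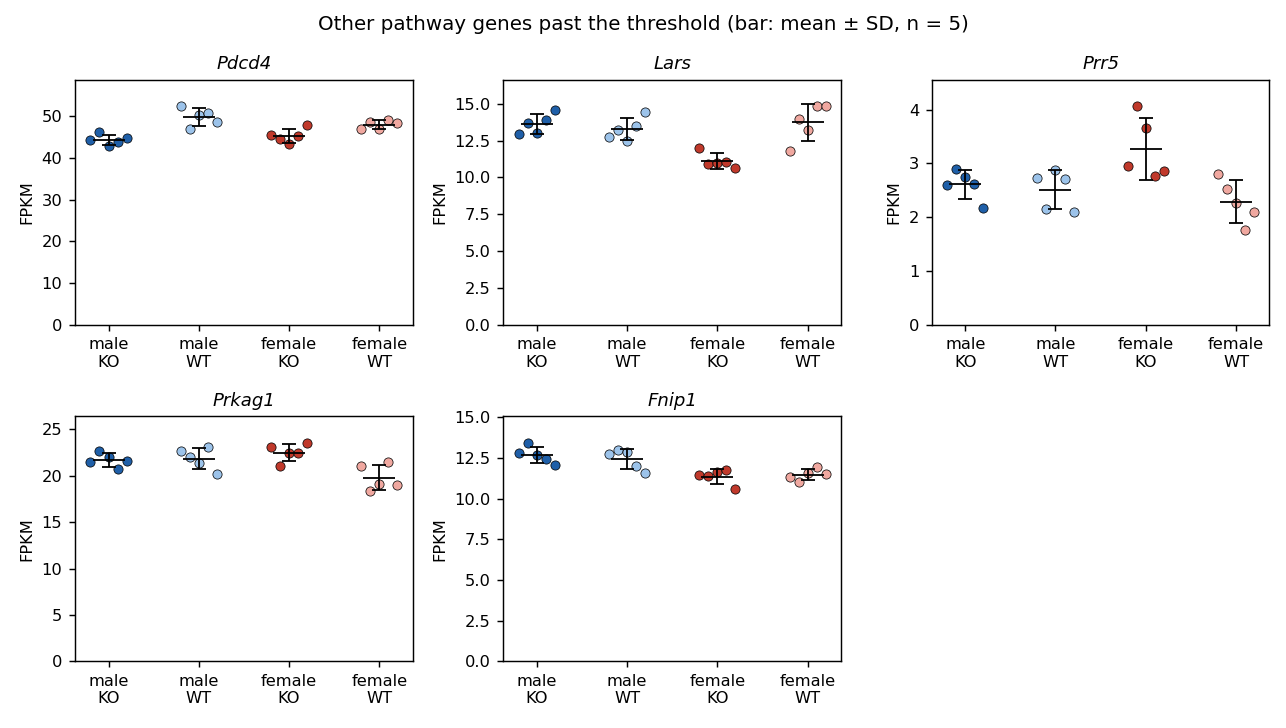
FPKM of Pdcd4, Lars, Prr5, Prkag1 and Fnip1 in each of 20 libraries by group, with bars at mean ± SD (n = 5). Pdcd4 averages lower in KO than in WT in both sexes, and Lars averages lower in female KO than in female WT.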

How the data were processed

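The authors deposited 1 table of gene FPKM for each library, per the file headers. FastQC, HISAT2, StringTie and the build mm10 are named in the submitters' processing notes. Tool versions, annotation release, trimming and strand are not given in the sources. RNA was prepared with TRIzol and libraries with a SMARTER kit, per the labels' protocols. FPKM summed to between 230631 and 244976 in a library, and FPKM carries no counts, so depth is unknown and no counting interval was computed. Between 18 and 28 genes per library were listed at 0.

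Genes with at least 0.5 FPKM in at least 5 of the 20 libraries were kept (13174 of 13256), and a model of 4 group means was fitted to log2(FPKM + 1) by limma-trend in limma 3.58.1 under R 4.3.3. The 6 comparisons were KO against WT in each sex, the mean and the difference of both KO effects, and males against females within KO and within WT. P-values were adjusted by Benjamini-Hochberg over all 13174 genes at a threshold of 0.05. The procedure was tested on simulated data with independent normal noise for each gene. Those data had no GC trend, foreign tissue or separate levels, so that test does not cover these features. GC content and overlapping gene models are from GENCODE M21, and coordinates are those of the deposited tables.

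The members and all lists were chosen with earlier results of these data known. Every library value is given for members past the threshold in any comparison, for the 2 smallest p-values of each KO comparison, and for Mtor, Agap2, Pik3cb, Ddit4 and Eif4ebp1. From the other lists, genes past the threshold and otherwise the smallest p-values are named. Names outside this rule are marked, and 3 genes it would name are not reported here. Alternatives were upper-quartile rescaling, a pseudocount of 0.1, no filter or one of 2 FPKM, a fit of the compared groups alone, the replicate number as a block, removal of a GC trend (loess, span 0.5, degree 1), and leaving out the 4 libraries with Ttr above 500 FPKM, the 3 with Prl above 4 FPKM, or each library in turn.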

Additional observations from a re-analysis of the deposited data

Results flagged for a closer look

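Single libraries stood far from the other 4 of their group in 16 of 172 gene and group combinations checked, where chance alone gives about 1 in 20, or 8.6. The measure is the gap to the nearest library divided by the range of the group, with a critical value of 0.71. Of the 16, 15 concerned members, but most of the genes checked were the 36 members. The share over all tested genes was not computed.

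Low libraries made up most of them. Pik3cb in male WT replicate 1 (4.17 FPKM, other libraries 5.95 to 6.55) had a ratio of 0.748, and Akt2 had 0.767 in male KO replicate 2 and 0.732 in male WT replicate 5. Sesn3 in male WT replicate 5 had 0.729 and Rragd in male KO replicate 3 had 0.896. Akt1s1 in female WT replicate 2 had 0.727, and Rragc had 0.712 in male WT replicate 2 and 0.768 in female WT replicate 4. Lamtor2 in male WT replicate 3, at 20.1 FPKM against 31.4 to 33.4 in the others, had 0.851. Lamtor4 in female WT replicate 3, at 13.3 FPKM against 17.4 to 17.7, had 0.926. Eif4e in female KO replicate 1 had 0.783.

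High libraries were Pik3ca in female WT replicate 4, at 8.61 FPKM against 4.23 to 4.4 (0.961), Mtor in female KO replicate 1 (0.722), Eif4ebp1 in female KO replicate 2 (0.782), Eif4e in female WT replicate 5 (0.776) and, outside the members, Lars in female KO replicate 1 (0.723).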

How the results depend on the processing

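The count of members past the threshold in females was 1 as reported and 0 with the GC trend removed, without the libraries high in Ttr and without those high in Prl. In the fit of the compared groups alone it was 1 but the gene was Ddit4, not Eif4ebp2. For the mean of both KO effects it was 1 as reported, 2 with a filter of 2 FPKM (Eif4ebp2 and Pik3r3), 0 with the GC trend removed and 0 without the libraries high in Prl, and without those high in Ttr the 1 gene was Pik3r3. For males against females within KO it was 2 as reported, 1 with the compared groups alone (Ddit4), 1 with the GC trend removed (Pik3r2), and 0 without the libraries high in Ttr or Prl. Leaving out single libraries gave counts of 0 to 1 in females, 1 to 2 for the mean and 0 to 3 for males against females within KO. Counts for males, for the difference of the KO effects and for males against females within WT were 0 in every alternative run. The causes of these changes were not tested.

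Replicate numbers did not pair the libraries: of 30 same-numbered pairs across groups, 0 had deviations correlated above 0.1 (range -0.105 to 0.0651). With the replicate block 1 member passed for males against females within KO (Eif4ebp2), and the calls of Ddit4 there (adjusted p = 0.0643) and of Prkag1 in females (0.0563) ended.

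Removing the GC trend turned the sign of 8 of 36 members in females and 1 in males (size as reported up to 0.0390 and 0.00609), and of 6 for males against females within KO (up to 0.112). Of the 12 members followed through every alternative, Mtor, Agap2 and Rragc turned sign in KO comparisons. Mtor was at 0.0338 in females without the libraries high in Prl and at 0.00871 in males without those high in Ttr. With single libraries left out it ran from -0.0381 to 0.00871 in males. Agap2 was at -0.0658 in females with the GC trend removed and, with single libraries left out, ran from -0.00517 to 0.0609 in males. For the mean of both KO effects Rragc was at 8.26e-05 with the GC trend removed and ran from -0.0319 to 0.00222 with single libraries left out. Depth is unknown, and differences under about the width of the intervals given were not detectable.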
